A study of Homo sapiens with 6 samples.

Results

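The 9 genes described here encode STK25, its relatives STK24 and STK26, and 6 core subunits of the STRIPAK complex, namely the striatins STRN, STRN3 and STRN4, MOB4, SIKE1 and SLMAP. They were taken by symbol from a deposited table of 35793 genes, and all 9 were found. RNA had been sequenced from cardiomyocytes grown from WTC11, a widely used human induced pluripotent stem cell line. The wild-type cells (WT) were unedited WTC11, and the knockout cells (STK25KO) came from a WTC11 derivative in which CRISPR/Cas9 had disrupted both copies of STK25. Each genotype had 3 biological replicates collected on day 15 of differentiation, with no drug or other treatment. The labels describe 1 knockout line and 1 wild-type line and do not say whether the former is a clone, so the edit and any other difference between the lines cannot be told apart, and they do not say whether replicates were separate differentiations, so p-values measure the spread between these libraries.

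STRIPAK (striatin-interacting phosphatase and kinase) is built on striatins, which take the place of a regulatory subunit of the phosphatase PP2A and hold its scaffold and catalytic subunits. The GCKIII kinases STK24, STK25 and STK26 join through the adaptor PDCD10, also known as CCM3. MOB4 binds the striatin end of the core, while SIKE1 and SLMAP form an arm that recruits the Hippo kinases STK3 and STK4, which the phosphatase then keeps inactive. In heart muscle SLMAP is known as a protein of the sarcolemma and sarcoplasmic reticulum, and striatin is found at the intercalated disc.

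Values are normalized counts, that is, whole reads divided by 1 factor per library. From 22443904 to 53224112 reads were assigned to genes per library, and no member had fewer than 393 reads in any library (STRN3) or more than 13655 (STK25). All 9 members were among the 15536 genes with a mean of at least 10 normalized counts, to which limma was fitted on log2(value + 1) with Benjamini-Hochberg adjustment over all of them. WT replicate 2 and STK25KO replicate 1 stood apart from the other 4 libraries on the second principal component, which carried 24.1% of the variance, so results are also given without both. All 7 cardiomyocyte markers were expressed. None was called by limma over all 6 libraries (4 at an unadjusted p under 0.05), where 12.8% of all genes tested were called. MYH7, ACTN2, MYL7 and TNNT2 had log2 fold changes of 1.42, 1.16, 1.37 and 0.32, and MYH6, TNNI1 and RYR2 of -1.14, -0.42 and -0.15. Without WT replicate 2 and STK25KO replicate 1, limma called MYH7, ACTN2, MYL7, MYH6 and TNNI1 (1.21, 1.16, 1.23, -1.35 and -0.39). In that fit 30.6% of all genes were called. The summed levels of the 7 markers were 1162007 to 1484743 normalized counts in WT and 1717877 to 3201806 in STK25KO, of which MYL7 made up the largest part. The 4 smooth muscle markers rose in STK25KO, with sums of 77993 to 87796 in WT and 486822 to 536049.9 in STK25KO. Of 4 neural markers 3 rose, with sums of 92.5 to 120 against 498 to 911. Over all genes tested, 5.97% were called higher. No epicardial or pluripotent marker was called, but their sums were also higher in every STK25KO library than in every WT library. Epicardial sums were 99.7 to 172 in WT and 246 to 456 in STK25KO, and pluripotent sums 329 to 418 and 468 to 492. Of 6 fibroblast markers DCN rose and COL1A2 fell, with sums of 12572 to 25395 in WT and 5360 to 10130.3 in STK25KO. Of 5 endoderm and liver markers 1 rose and 1 fell, with sums of 1652 to 3003 against 1479.7 to 1624, and APOB and FOXA2 had at most 3 reads in every library of a genotype, as did CDH5 among the endothelial markers. The part of these markers in the member values was not tested, and in bulk RNA fewer cells of a type and less RNA per cell cannot be told apart.

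STK25 was lower and SIKE1 higher in the knockout, and the other 7 members did not pass the test. The 2 called members of 9 stand beside 12.8% of all genes tested (5.97% called higher and 6.79% called lower), and STK25 is the edited gene itself. For 3 members, STK25, STRN and SIKE1, the libraries of the genotypes did not overlap, as in 33.4% of all genes tested (16.2% higher and 17.2% lower in STK25KO). The median log2 fold change of the 9 members was -0.11, against 0.01 for all genes tested, and the members' median turned to 0.21 without STK25KO replicate 1.

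**Figure D1:**
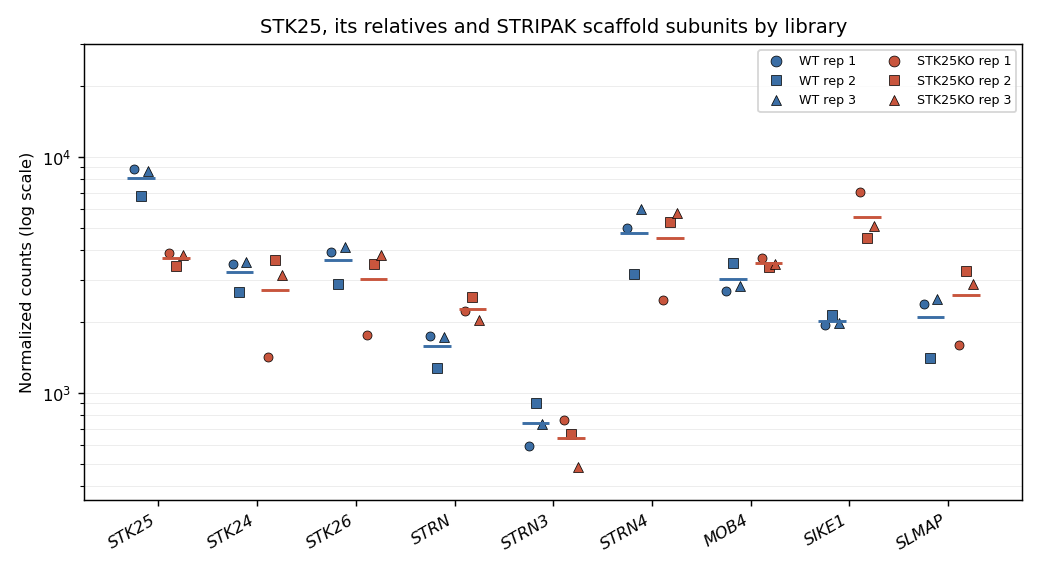
Normalized counts on a log axis for the 9 members in each of the 6 libraries; blue is WT, red is STK25KO, the marker shape gives the replicate and the line the mean. STK25 is lower and SIKE1 higher in every STK25KO library than in every WT library, and STK25KO replicate 1 (red circles) is the lowest of all 6 libraries for STK24, STK26 and STRN4.

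STK25, a GCKIII kinase also called YSK1, is encoded on the minus strand of chromosome 2 (241492674 to 241509730, GENCODE 29 on GRCh38, the build used for all positions here). It had 8874, 6774 and 8710.4 normalized counts in WT replicates 1 to 3. The STK25KO replicates had 3906, 3434 and 3820, all below the lowest WT library. The mean in the knockout was 45.8% of the wild-type mean (3720 ± 251 against 8119 ± 1168, SD, n = 3 each). The log2 fold change was -1.12 with a 95% interval of -1.55 to -0.68 (limma adjusted p = 0.00903). It was -1.28 without WT replicate 2 and STK25KO replicate 1 (limma adjusted p = 5.02e-05), and -1.05 without WT replicate 1 (limma adjusted p = 0.0611), over the threshold of 0.05. Gene totals do not tell edited from unedited transcripts, and the 3′ end of STK25 overlaps that of FARP2, a guanine nucleotide exchange factor on the opposite strand, with which it shares 12.6% of its 31-base words. FARP2 itself had 682 ± 178 normalized counts in WT and 739 ± 209 in STK25KO (SD, n = 3 each).

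The relatives STK24 (MST3) and STK26 (MST4) were not called, and in both the result turned on STK25KO replicate 1. STK24 (chromosome 13, 98445185 to 98577940, minus strand) had 3516, 2661 and 3582 normalized counts in WT. In STK25KO it had 1408, 3645 and 3134. The first knockout library was thus far below all others, while the remaining knockout libraries lay within or just above the wild-type range. The log2 fold change of STK24 was -0.35 with a 95% interval of -1.19 to 0.48 (limma adjusted p = 0.588), and 0.07 without STK25KO replicate 1.

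STK26 (chromosome X, 132023265 to 132075943, plus strand) had 3957, 2884 and 4137 normalized counts in WT. The STK25KO libraries had 1745, 3511 and 3839, with the same library lowest. Its log2 fold change was -0.33 with a 95% interval of -1.09 to 0.42 (limma adjusted p = 0.568), and 0.02 without STK25KO replicate 1. Without both of the libraries that stood apart, the intervals were -0.38 to 0.24 for STK24 and -0.43 to 0.15 for STK26. The upper ends of these intervals, and of those over all 6 libraries, lay below the size of the fall in STK25. For STK24 this holds only for the reads credited to it. No 31-base word was shared among the transcripts of the 3 kinases, but 62.5% of those of STK24 also occurred in FARP1, whose 3′ end overlaps it on the other strand. FARP1 had 1836 ± 356 normalized counts in WT and 2979 ± 629 in STK25KO (SD, n = 3 each). Its log2 fold change was 0.70 (limma adjusted p = 0.0988), against -0.35 for STK24. Without STK25KO replicate 1 the values were 0.82 for FARP1 and 0.07 for STK24. How reads of the shared stretch were split between these genes was not tested.

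Per length of the union of annotated exons, STK25 and STK26 were the most abundant members in WT, at 1071 ± 154 and 1091 ± 202 normalized counts per kb (SD, n = 3), and their libraries overlapped. STK24 was lower, at 269 ± 42.6 per kb. This order depends on the length used and was not taken with longest transcripts. These have 4619 bases for STK25, 3288 for STK26 and 3628 for STRN4, against unions of 7584, 3354 and 7641. The length of STK24 includes the stretch shared with FARP1, so its level and shares count only reads credited to it. As shares of the summed per-kb level of the 3 kinases, which do not depend on how libraries are scaled, STK25 held 44.3%, 45.3% and 42.9% in WT. It held 44.7%, 25.1% and 26.4% in STK25KO. The share in STK25KO replicate 1 was therefore inside the wild-type range although its STK25 level was not, because STK24 and STK26 were also low there. The difference in mean share was -12.1 percentage points (exact two-sided permutation p = 0.3, where 0.1 is the smallest that 3 against 3 libraries allow), and -18.4 without STK25KO replicate 1. The summed per-kb level of the 3 kinases was 2641, 1973 and 2679 in WT and 1152, 1801 and 1908 in STK25KO, with no overlap (exact permutation p = 0.1). That of STK24 plus STK26 was 1471, 1080.1 and 1530.1 in WT and 637, 1349 and 1404 in STK25KO, with overlap. STK26 made up 80.1% ± 0.510 of the STK24 and STK26 sum in WT and 80.3% ± 2.30 in STK25KO (SD, n = 3 each), a gap smaller than either SD.

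**Figure D2:**
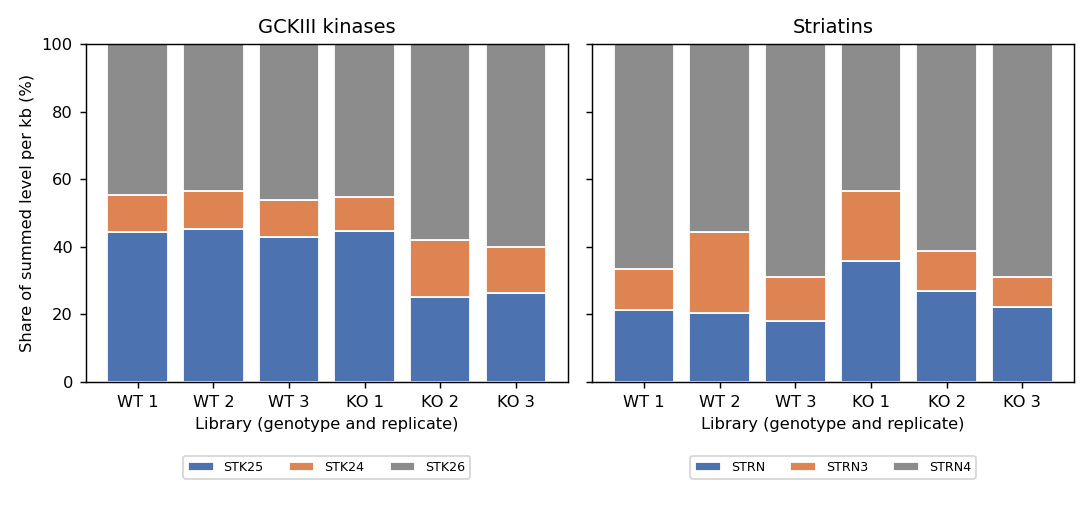
Stacked shares, in percent of the summed level per kb of exon, of the 3 GCKIII kinases (left) and the 3 striatins (right) in each library. STK25 holds 42.9% to 45.3% in WT and 44.7%, 25.1% and 26.4% in knockout replicates 1 to 3, and STRN holds a larger share in each STK25KO library than in any WT library.

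The striatins, the scaffolds of the complex, were expressed at unequal levels and none was called. STRN4 (zinedin; chromosome 19, 46719507 to 46746994, minus strand) was the most abundant, at 619 ± 186 normalized counts per kb in WT, against 189 ± 31.03 for STRN and 150 ± 30.98 for STRN3 (SD, n = 3). STRN, or striatin (chromosome 2, 36843640 to 36966472, minus strand), had 1731, 1276 and 1717 normalized counts in WT. It had 2208, 2551 and 2033 in STK25KO, each above every WT library. Its log2 fold change was 0.53 with a 95% interval of 0.05 to 1.01 (limma unadjusted p = 0.0344, adjusted p = 0.143), so it missed the threshold after adjustment. Without WT replicate 2 and STK25KO replicate 1 it was 0.40 (limma adjusted p = 0.0846), and with libraries scaled to equal totals 0.25 (limma adjusted p = 0.593).

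STRN3 (SG2NA; chromosome 14, 30893799 to 31026401, minus strand) had 594, 901 and 737 normalized counts in WT. It had 766, 665 and 485 in STK25KO, and the genotypes overlapped (log2 fold change -0.22, 95% interval -0.84 to 0.40, limma adjusted p = 0.652). STRN4 had 4994, 3191 and 5996 in WT. In STK25KO it had 2463, 5304 and 5766. Here too STK25KO replicate 1 was the lowest library and WT replicate 2 the next (log2 fold change -0.11, 95% interval -0.99 to 0.76, limma adjusted p = 0.888), and without both the value was 0.02. The summed per-kb level of the striatins was 957 ± 195 in WT and 990.4 ± 217 in STK25KO (SD, n = 3 each).

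Within that sum STRN held 21.2%, 20.3% and 18.1% in WT and 35.7%, 27.0% and 22.2% in STK25KO, with no overlap (a difference of 8.44 percentage points, exact permutation p = 0.1). Without STK25KO replicate 1 the difference was 4.75. STRN3 held 12.2%, 24.1% and 13.0% in WT and 20.8%, 11.8% and 8.92% in STK25KO, and STRN4 66.7%, 55.5% and 68.9% against 43.5%, 61.2% and 68.9%. In both genotypes the library that stood apart had the highest STRN3 share and the lowest STRN4 share.

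MOB4 (phocein, chromosome 2, 197515571 to 197553699, plus strand) shares coding exons with HSPE1-MOB4, an annotated read-through gene that starts in HSPE1, the mitochondrial co-chaperonin. Of the 31-base words of MOB4, 15.2% (670) lie in both. HSPE1-MOB4 has 1 annotated transcript of 890 bases, so most of its own words are shared with MOB4. The sequences below are from GENCODE 29 transcripts and show the splice junction at which the annotated transcripts begin to coincide. Lower case is the last 15 bases before the junction, which differ between the transcripts. Those of HSPE1-MOB4 end at 197501238, within the span of HSPE1. Capitals are the first 15 bases of the shared exon, which starts at position 197523624.
HSPE1-MOB4: ggttctaaaggaaagGATTTCTATAATTGG
MOB4: ggcaccaaggcgcagGATTTCTATAATTGG
Reads within the stretch that both transcripts hold can be credited to either gene, and how the counts below were split between the genes was not tested.

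MOB4 had 2693, 3529 and 2841 normalized counts in WT. It had 3728, 3412 and 3521 in STK25KO, and WT replicate 2 lay within the knockout range (log2 fold change 0.24, 95% interval -0.18 to 0.67, limma adjusted p = 0.450). With libraries scaled to equal totals the value was -0.04. HSPE1-MOB4 had 1483, 1577 and 1237 normalized counts in WT and 2238, 1937 and 2313 in STK25KO, with no overlap (log2 fold change 0.60, SE 0.19, limma adjusted p = 0.0849). The sum of both genes, added after their values were seen, was 4176, 5106 and 4077 in WT. In STK25KO it was 5967, 5349 and 5834, each above every WT library (exact permutation p = 0.1). The read-through gene made up 35.5%, 30.9% and 30.3% of that sum in WT and 37.5%, 36.2% and 39.6% in STK25KO. HSPE1 itself ran from 12312 to 26132 in WT and from 17208 to 51630.3 in STK25KO (log2 fold change 0.82, SE 0.45, limma adjusted p = 0.287), highest in the libraries that stood apart.

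SIKE1 (suppressor of IKK-epsilon; chromosome 1, 114769479 to 114780685, minus strand) showed the largest difference of the 9. It had 1933, 2140.3 and 1963 normalized counts in WT, a narrow range. The STK25KO libraries had 7047, 4539 and 5059, each more than every WT library. Its mean rose from 2012 ± 112 to 5548 ± 1324 (SD, n = 3 each), or 2.76-fold. The log2 fold change was 1.44 with a 95% interval of 0.94 to 1.93 (limma adjusted p = 0.00527). It was 1.25 without STK25KO replicate 1, the highest library (limma adjusted p = 0.00533), and 1.30 without that library and WT replicate 2 (limma adjusted p = 7.54e-05). Per kb of the union of exons SIKE1 went from the fifth of the 9 members in WT, at 341 ± 19.0, to the first in STK25KO, at 941 ± 225 (SD, n = 3 each), where its libraries overlapped those of STK26, the next. This rank depends on the length used and was not taken with longest transcripts. The longest transcript has 5506 bases for SIKE1 and 3628 for STRN4, against unions of 5894 and 7641. Only 2.24% of the 31-base words of SIKE1 occurred in other genes, and none in its paralog FGFR1OP2.

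FGFR1OP2, the paralog of SIKE1 that occupies the same place in the complex, had 1365, 1502 and 1254 normalized counts in WT. It had 1738, 1277 and 1412 in STK25KO (log2 fold change 0.10, 95% interval -0.37 to 0.56, limma adjusted p = 0.817). The log2 ratio of SIKE1 to FGFR1OP2 per kb, which needs no scaling between libraries, was 0.52, 0.53 and 0.67 in WT. It was 2.04, 1.85 and 1.86 in STK25KO, so the ratio moved by 1.34 with an SD within genotypes of 0.08 and 0.11 (exact permutation p = 0.1). It stayed between 1.282 and 1.39 when any 1 library was left out.

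SLMAP (chromosome 3, 57755450 to 57929168, plus strand), the partner of SIKE1 in this arm, had 2379, 1408 and 2497 normalized counts in WT. It had 1597, 3275 and 2885 in STK25KO, and the genotypes overlapped (log2 fold change 0.28, 95% interval -0.50 to 1.07, limma adjusted p = 0.653). Both low values were in the libraries that stood apart, and without them the value was 0.33 with a 95% interval of 0.02 to 0.65 (limma adjusted p = 0.101). Leaving out 1 library moved it between 0.02, without WT replicate 2, and 0.60, without STK25KO replicate 1, and with equal totals it was 0.002. The log2 ratio of SIKE1 to SLMAP per kb was 0.96, 1.87 and 0.92 in WT and 3.41, 1.73 and 2.07 in STK25KO. It overlapped between genotypes because of WT replicate 2 (exact permutation p = 0.2).

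Of 5 listed genes tied to this arm, IKBKE fell and STK3, STK4, SAV1 and TBK1 were not called. IKBKE (IKK-epsilon), the kinase that SIKE1 is named for, had 630, 497 and 702 normalized counts in WT. It had 62.3, 158 and 205 in STK25KO, all below the WT range (log2 fold change -2.24, SE 0.45, limma adjusted p = 0.0172). This call was lost without WT replicate 1 or WT replicate 3. TBK1, the related kinase that SIKE1 also binds, ran from 696 to 1254 in WT and from 484 to 1389 in STK25KO (log2 fold change -0.21, limma adjusted p = 0.809), and turned to 0.23 without STK25KO replicate 1. For the Hippo kinases the log2 fold change was 0.30 (STK3, limma adjusted p = 0.541) and 0.26 (STK4, limma adjusted p = 0.568). The 1 call of 5 stands beside 12.8% of all genes tested, and the median of the 5 was -0.17, but 0.23 without STK25KO replicate 1.

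**Figure D3:**
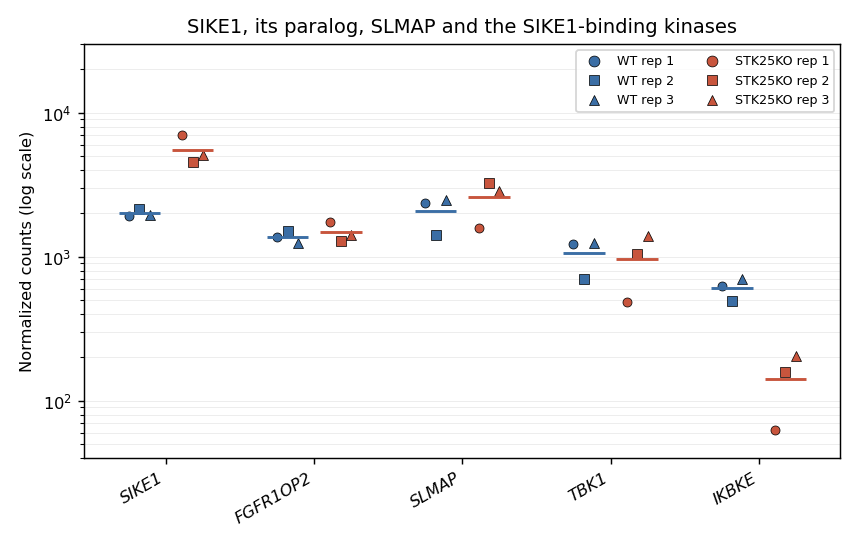
Normalized counts on a log axis for SIKE1, its paralog FGFR1OP2, SLMAP, and the kinases TBK1 and IKBKE in each library; colours and marker shapes give genotype and replicate, and lines are means. SIKE1 is higher and IKBKE lower in all 3 STK25KO libraries than in all 3 WT libraries, and the other genes overlap between genotypes.

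Of 11 further STRIPAK genes CTTNBP2, a cortactin-binding adaptor, rose and none fell, where 12.8% of all genes tested were called. Their median log2 fold change was 0.03, but 0.23 without STK25KO replicate 1 and -0.23 with equal totals. CTTNBP2 had 728, 599 and 601 normalized counts in WT and 1075, 1139 and 1091 in STK25KO, all above the WT range (log2 fold change 0.78, SE 0.20, limma adjusted p = 0.0387). Its call was lost when any 1 library other than STK25KO replicate 1 was left out. STRIP2, a scaffold protein of the complex, had 2187, 1373 and 2543 in WT and 3156, 5002 and 4305 in STK25KO. It did not overlap either, at a log2 fold change of 1.05 just over the threshold (SE 0.29, limma adjusted p = 0.0523). PDCD10, the adaptor that ties the GCKIII kinases to striatins, had 2322, 2953 and 1909.9 in WT and 3567, 2774 and 3429 in STK25KO (log2 fold change 0.46, 95% interval -0.06 to 0.97, limma adjusted p = 0.234). Here WT replicate 2 lay above the lowest knockout library.

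The PP2A core of the complex was not called in the fit of all libraries. The scaffold subunit PPP2R1A had a log2 fold change of -0.44 (95% interval -1.003 to 0.13, limma adjusted p = 0.298) and the catalytic subunit PPP2CA 0.01 (95% interval -0.55 to 0.57, limma adjusted p = 0.986). Of their paralogs, PPP2R1B stood at 0.24 (limma adjusted p = 0.867) and PPP2CB at -0.66 (limma adjusted p = 0.370). Without WT replicate 2 and STK25KO replicate 1, 6 of the 11 genes were called, against 30.6% of all genes in that fit of 2 against 2 libraries. These were STRIP2 (0.98), PPP2R1B (0.78), CTTNBP2 (0.75) and PDCD10 (0.55), which were higher, and PPP2CB (-0.74) and PPP2R1A (-0.35), which were lower.

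**Figure D4:**
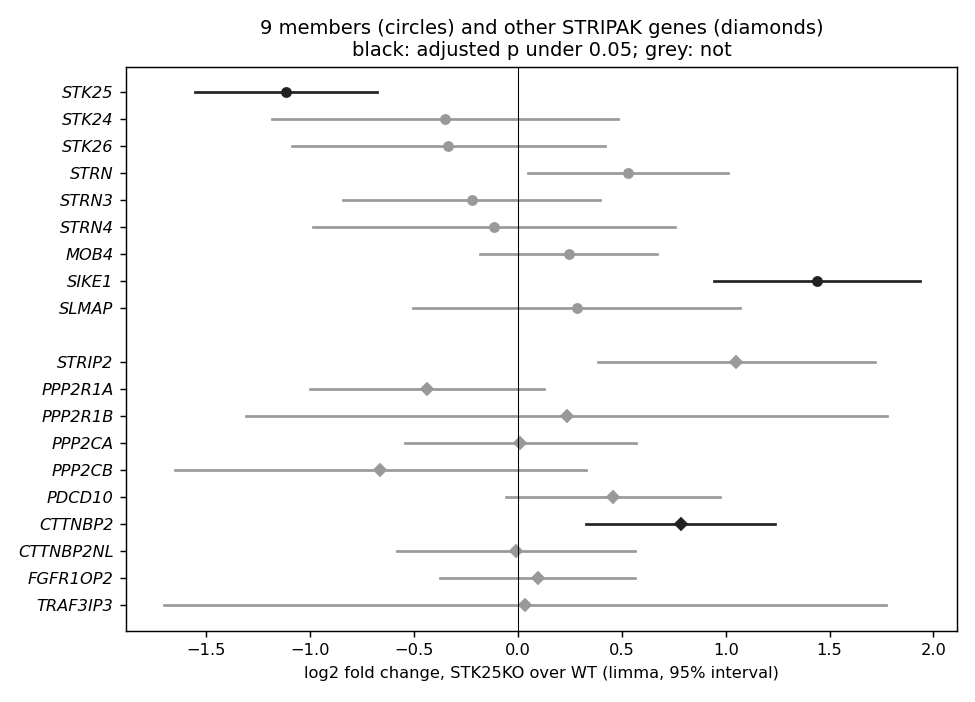
log2 fold changes of STK25KO over WT with 95% intervals from limma for the 9 members (circles) and other STRIPAK genes (diamonds), black where the adjusted p is under 0.05. STK25, SIKE1 and CTTNBP2 are black, and the intervals of STRN and STRIP2 exclude 0 although their adjusted p-values are 0.143 and 0.0523.

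Known partners and substrates of the GCKIII kinases gave 0 calls among 11 genes with limma, which called 12.8% of all genes tested. At an unadjusted p under 0.05 limma gave 1. With edgeR, which called 12.0% of all genes, there were 0, and DESeq2, which called 20.7%, called STK38L alone. Without WT replicate 2 and STK25KO replicate 1, limma called 4 of the 11, against 30.6% of all genes. The median log2 fold change over all 6 libraries was 0.42, but 0.095 without WT replicate 2 and 0.14 with equal totals. The gene at an unadjusted p under 0.05 was STK38L (NDR2), a kinase that STK24 phosphorylates. It had 1086, 788 and 1218 normalized counts in WT and 1382, 2805 and 2659.9 in STK25KO, all above the WT range (log2 fold change 1.10, SE 0.32, limma adjusted p = 0.0629). Without STK25KO replicate 1 it was 1.43 (limma adjusted p = 0.0101). GOLGA2 (GM130), the Golgi matrix protein that STK25 binds, had 615, 1005.4 and 612 in WT. It had 2541, 820.3 and 967 in STK25KO, high in both libraries that stood apart (log2 fold change 0.80, SE 0.44, limma adjusted p = 0.289). Without STK25KO replicate 1 this value was 0.30.

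Of 12 listed regulatory subunits that compete with striatins for the PP2A core, 11 passed the filter on low values. Among these 3 rose and 1 fell, where 12.8% of all genes tested were called. The median log2 fold change was 0.46, but 0.29 without STK25KO replicate 1 and 0.18 with equal totals. PPP2R3B went up by 1.18 on the log2 scale (limma adjusted p = 0.00553), with means of 3619 ± 365 in WT and 8180.3 ± 619 in STK25KO (SD, n = 3 each). PPP2R3C rose from 2109 ± 263 to 3967 ± 210.1 (log2 fold change 0.92, limma adjusted p = 0.0164), and PPP2R5A from 1996 ± 148 to 3092 ± 80.5 (log2 fold change 0.63, limma adjusted p = 0.0486). PPP2R2B, a subunit best known from brain, fell from 209 ± 51.4 to 22.2 ± 13.7 (log2 fold change -3.30, limma adjusted p = 0.00553). Whether these subunits differed from the striatins as a group was not tested. With libraries scaled to equal totals 2 of the 4 calls were left, PPP2R3B and PPP2R2B, and PPP2R5A lost its call when any 1 library was left out.

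In 7 of the 9 members the libraries that stood apart held the lowest, or the highest, level of both genotypes. STK24, STK26, STRN4 and SLMAP were lowest of their genotype in both WT replicate 2 and STK25KO replicate 1, as were 30.4% of all genes tested. STRN3, MOB4 and SIKE1 were highest of their genotype in both, as were 29.5% of all genes tested. STK25 and STRN did neither: STK25 was lowest in WT replicate 2 but highest in STK25KO replicate 1. The intervals of STK24, STK26, STRN4 and SLMAP were the widest of the 9, and they narrowed when both libraries were left out, to -0.29 to 0.32 for STRN4 in place of -0.99 to 0.76.

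**Figure D5:**
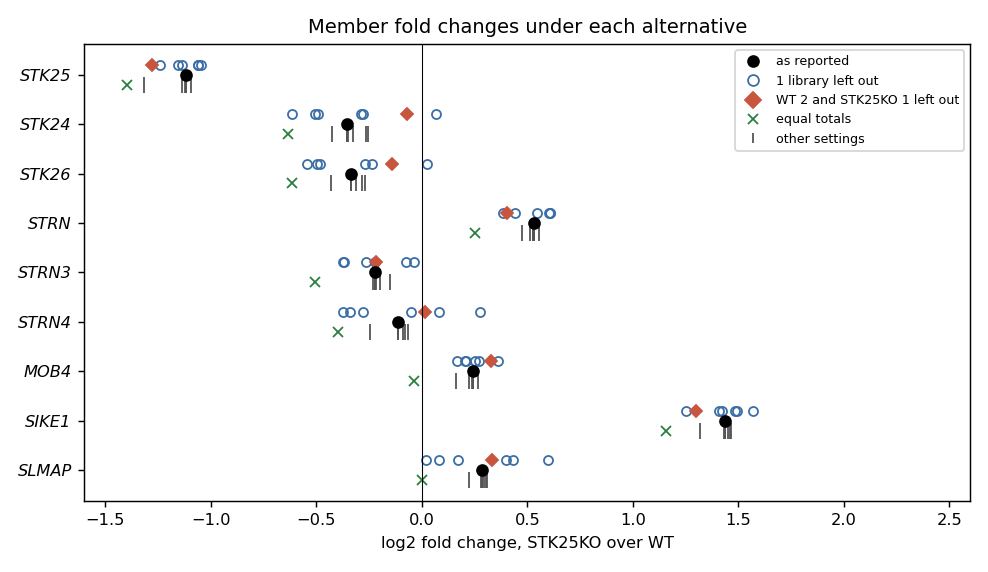
log2 fold changes of STK25KO over WT for the 9 members as reported (black) and under each alternative: 1 library left out (open blue), WT replicate 2 and STK25KO replicate 1 left out (red diamonds), equal totals (green crosses) and the other settings (ticks). STK25 stays below -1.0 and SIKE1 above 1.1 throughout, while STK24, STK26, STRN4 and MOB4 lie on both sides of 0.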

How the data were processed

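RNA from 6 libraries, 3 per genotype, was analysed. The deposited table holds a signal that it calls normalized counts, 1 value per gene symbol and library. bcl2fastq 2.19, kallisto 0.44.0, DESeq2 1.28.1 and GRCh38 are named, without roles, per the submitters' processing notes. The annotation and use of strand are not given in the sources used here. Per the labels' protocols, NexteraXT libraries were built on Clontech Ultra Low v4 cDNA. Columns were matched by the names in the labels, and 0 were unused. All values (100%, tolerance 0.001 of a read) were whole multiples of 1 step per library, from which reads were recovered. Depth limits counting error only, since no molecular identifiers are mentioned.

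limma 3.58.1 (R 4.3.3; lmFit, eBayes with trend, two-sided, pseudocount 1, mean of at least 10, threshold 0.05) used all 6 libraries and no covariate. Shares and ratios were compared by exact permutation tests. Lengths (union of exons), positions and transcripts came from GENCODE 29. Alternatives were other pseudocounts, filters, scalings and eBayes settings, a replicate block, and leaving out libraries. Further ones were edgeR 4.0.16 and DESeq2 1.42.0 on recovered reads and, for shares and ratios only, longest transcripts as lengths. The limma and edgeR fits were tested on simulated counts with the same spread setting for every gene and no library that stood apart. That test therefore does not cover the spread between the libraries seen here. Figures used matplotlib 3.10.9.

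Named are the 9 members, list genes with an adjusted p under 0.05, PDCD10, FGFR1OP2, HSPE1 and HSPE1-MOB4, the called neighbours, and 3 genes most alike to STK25 and to SIKE1. Other genes were named after their values were seen, and a few list genes and neighbours are not reported here. The members and lists were chosen with earlier results of these data known. Leaving out WT replicate 2 with STK25KO replicate 1, and the MOB4 sum, were chosen after seeing the data.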

Additional observations from a re-analysis of the deposited data

How the results depend on the processing

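The log2 fold change of SIKE1 kept its direction and an adjusted p under 0.05 (limma, edgeR or DESeq2) under all 19 alternatives. STK25 kept its direction under all 19 and lost its call under 2. Replicate numbers are not known to pair the libraries, so the replicate block may share only a number. WT and STK25KO libraries of the same number had deviations correlated at -0.23, -0.40 and 0.17 across genes. The highest value of any WT and STK25KO pair was 0.45, between WT replicate 2 and STK25KO replicate 1. With deviations taken from means of 3 libraries, of which 1 per genotype stood apart, these values cannot decide whether numbers mark shared batches. With the block STK25 was -1.12 (limma adjusted p = 0.0684), and calls fell to 798 of all genes, 1 member, 0 other STRIPAK genes, 1 PP2A regulatory subunit and 2 neighbours of members. The number of genes called was 1982 in all, 3210.0 with DESeq2 and 4706 without WT replicate 2 and STK25KO replicate 1. Without those libraries calls numbered 6 other STRIPAK genes, 4 kinase partners, 7 PP2A subunits and 16 neighbours, STK25 stood at -1.28, and STRN4 turned to 0.02. Other STRIPAK calls were 2 with pseudocount 10, equal upper quartiles or DESeq2, and 0 with no filter, equal totals or eBayes without a trend. Kinase partner calls were 1 with equal upper quartiles, quantile normalization or DESeq2. With equal totals, which moved the median of all genes to -0.27, there were 2 PP2A and 3 neighbour calls and MOB4 turned to -0.038; with DESeq2 there were 11 neighbour calls.

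Leaving out 1 library at a time, calls ran from 792 to 2192 of all genes, 1 to 2 members, 0 to 2 other STRIPAK genes, 0 to 1 kinase partners, 0 to 1 of the SLMAP and SIKE1 partners, 2 to 3 PP2A subunits and 3 to 6 neighbours. All genes called numbered 792 without WT replicate 1, 911 without WT replicate 3, 1270.0 without STK25KO replicate 2 and 963 without STK25KO replicate 3. STK25 ran from -1.24 to -1.05, STK24 from -0.62 to 0.068, STK26 from -0.55 to 0.023 and STRN4 from -0.37 to 0.27. STRN4 was 0.08 without WT replicate 3 and 0.27 without STK25KO replicate 1. The STRN3 share difference ran from -6.09 to 1.24 percentage points, the latter without WT replicate 2. Precision is limited by the 3 libraries per genotype.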

Other observations

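The 2 nearest tested protein-coding genes on each side of every member made 36 neighbours, of which 5 rose and 2 fell (limma adjusted p under 0.05), where 5.97% of all genes tested rose and 6.79% fell. Their median log2 fold change was 0.03, but 0.24 without STK25KO replicate 1 and -0.26 with equal totals. Beside STK25, BOK, a BCL2-family gene, rose by 1.19 (limma adjusted p = 0.00871), while HDLBP, FARP2 and THAP4 had values of 0.08, 0.11 and -0.20. Beside SIKE1 on chromosome 1, the tetraspanin TSPAN2 (115048011 to 115089500) rose by 1.13 on the log2 scale (limma adjusted p = 0.0114), with means of 1941 ± 144 in WT and 4301 ± 790.1 in STK25KO (SD, n = 3 each). VANGL1, a planar polarity gene further on, fell from 801 ± 157 to 361 ± 126 (log2 fold change -1.18, limma adjusted p = 0.0439). NRAS, on the other side, had a value of -0.03. Beside STK26, ENOX2 and RAP2C rose by 1.06 and 0.94 (limma adjusted p = 0.0296 and 0.0254). DOCK9 beside STK24 fell by 2.51 and CRIM1 beside STRN rose by 2.46 on the log2 scale (limma adjusted p = 0.00861 and 0.00613). BOK, DOCK9 and CRIM1 kept their calls when any 1 library was left out, and TSPAN2, VANGL1, ENOX2 and RAP2C each lost theirs in some of those fits. DNASE1L3 beside SLMAP was over the threshold with limma (adjusted p = 0.0643) and was called by DESeq2; it was named after its values were seen.

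Across 13036 genes with a mean of at least 50, those whose log2 values over the 6 libraries had the highest Pearson correlation with STK25 were ADAM23 (0.998), DYRK3 (0.996) and ARMH4 (0.996). Their log2 fold changes were -0.45, -1.68 and -2.15, so a like order of libraries came with unlike sizes. For SIKE1 they were AF228730.5 (0.999), TWF2 (0.998), a twinfilin, and POPDC2 (0.998), a cAMP-binding membrane protein of heart muscle. Their log2 fold changes were 2.09, 0.85 and 1.31. These correlations rest on 6 libraries of 2 genotypes that share the same scaling, and describe only these libraries.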
